A study of Rattus norvegicus with 141 samples.

Results

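The genes described here encode the folding, glycosylation and quality control machinery of the endoplasmic reticulum (ER) and the sensors of the unfolded protein response. They were taken by symbol from a list of 36 genes, of which 35 had a row in each of the 3 count tables (30562 genes per table). All 35 passed the filter on low counts in liver, stomach and duodenum. The expression of Uggt2 is not analysed here; its promoter is among those searched below.

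The rats were wild-type adult Sprague-Dawley animals kept on ordinary rodent chow, and neither the dosing vehicle nor the polymer is named in the sources used here. Each tissue was sampled in males and females given vehicle, microplastics at a low dose (5 mg/kg) or microplastics at a high dose (50 mg/kg), and polyadenylated RNA was sequenced. There were 46 liver, 48 stomach and 47 duodenum libraries, with 8 for each sex and dose, except 7 duodenum libraries of vehicle females and 6 liver libraries of high-dose females. The labels give a batch (1 to 3) for each library but leave unsaid whether every library is a different animal, so p-values measure the spread between these libraries, which may be partly technical. Several frozen pieces of an organ were pulverized together, and the homogenizer was brushed clean only when changing treatment.

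Liver libraries held 6153368 to 23716967 counts, stomach libraries 4947825 to 23940175 and duodenum libraries 5470039 to 25503801. Defining markers of the labelled organ were abundant in each tissue. Levels are given as CPM, counts relative to a library total adjusted by edgeR's TMM scaling factor, here computed within each tissue. They are therefore not shares of equal totals. Hepatocyte markers reached a median of 117700 CPM in liver controls. Gastric chief cell markers reached 97710 CPM in stomach controls, and goblet and Paneth markers 14160 CPM in duodenum controls. Enterocyte markers summed to between 1731 and 17910 CPM in duodenum controls, and the same list to between 2233 and 4657 CPM in liver controls. The duodenum libraries also held very unequal amounts of pancreatic acinar transcripts, from 0.6185 to 78820 CPM summed over 13 markers. These are bulk samples, so fewer cells of a type and less RNA per cell cannot be told apart.

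Secreted and membrane proteins enter the ER through the Sec61 channel, receive N-glycans from the oligosaccharyltransferase and fold with the help of BiP (Hspa5), Grp94 (Hsp90b1), lectin chaperones and protein disulfide isomerases. Chains that fail to fold are pulled back to the cytosol and degraded. When unfolded chains build up, the sensors IRE1 (Ern1), PERK (Eif2ak3) and ATF6 raise the transcription of chaperones and degradation factors, while PERK slows translation and favours the synthesis of ATF4 and, downstream, CHOP (Ddit3). Hepatocytes, gastric chief cells, mucous cells, plasma cells and pancreatic acinar cells are all professional secretors and carry much of this machinery.

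ATF6 is known to act on many of these genes through the ER stress element, in which CCAAT and CCACG stand a fixed distance apart. RefSeq promoters (assembly GRCr8, 250 bases before to 50 after the start site) were matched for 29 of the 36 genes and searched for this element on both strands. It was found in 7 of the 29 (24.1%), namely Hspa5, Hsp90b1, Calr, Canx, Creld2, Dnajc3 and Ero1b. As the element is known from genes of this kind, matches among them were foreseeable. Of all 33469 promoters of that length 22 held it (0.0657%), and of all gene symbols 0.0765% did. Xbp1 and Derl3, pathway genes outside the list, were among the others. Stretches of 6 of the 7 are printed 5′ to 3′ on the gene's own strand because their genes are those followed below, and capitals mark the fixed letters of the element, which reads CGTGG followed by ATTGG where it lies on the opposite strand.
Hspa5 (chr3:38452963-38453001, + strand): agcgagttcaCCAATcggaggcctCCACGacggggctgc
Calr (chr19:40213125-40213163, + strand): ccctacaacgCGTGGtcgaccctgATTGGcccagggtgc
Creld2 (chr7:121789229-121789267, + strand): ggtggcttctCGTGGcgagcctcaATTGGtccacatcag
Dnajc3 (chr15:102432524-102432562, + strand): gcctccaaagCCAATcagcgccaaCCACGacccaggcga
Ero1b (chr17:92941448-92941486, + strand): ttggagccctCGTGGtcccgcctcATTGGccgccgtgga
The Hsp90b1 stretch holds 2 matches, 1 in each direction, and is the longest.
Hsp90b1 (chr7:23012337-23012479, - strand): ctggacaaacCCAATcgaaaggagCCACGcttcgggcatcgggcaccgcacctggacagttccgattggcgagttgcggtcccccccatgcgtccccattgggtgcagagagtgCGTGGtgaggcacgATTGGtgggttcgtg
A second motif bound by XBP1 and ATF6, TGACGTGG, was found in 0.595% of all promoters and in 1 member, Hyou1, where capitals mark it.
Hyou1 (chr8:53602681-53602708, + strand): ccgcgaaccgTGACGTGGgccaatccgc
The letters CCACG alone, which are part of the full element, are common and were present in 25 of the 29 promoters and in 31.6% of all promoters. The ATF4 motif TGATGNAAT was found in none of the 29 and in 1.09% of all. A match is a description of the letters in this window and says nothing about binding. Other spacings of CCAAT and CCACG were not searched.

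The 3 organs differed in these genes far more than the doses did. Vehicle controls of the 3 tissues were fitted together with edgeR's quasi-likelihood test, and levels below are CPM on that common scale, which is not divided by gene length, so a level is compared only within a gene. The 35 members summed to a median of 13040 CPM in liver controls (lowest 12000, highest 19440, n = 16), 7579 CPM in duodenum (5280 to 9020, n = 15) and 5301 CPM in stomach (4532 to 6509, n = 16). On this scale no liver control fell into the range of either gut tissue. Scaled within each tissue instead, the summed medians were 8095 CPM in liver, 9932 CPM in duodenum and 6729 CPM in stomach controls. The order of liver and duodenum thus depends on the scaling, and separations of tissues below are those on the common scale. On the common scale the median ran liver, duodenum, stomach in 27 of the 35 genes and liver, stomach, duodenum in 5.

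**Figure D1:**
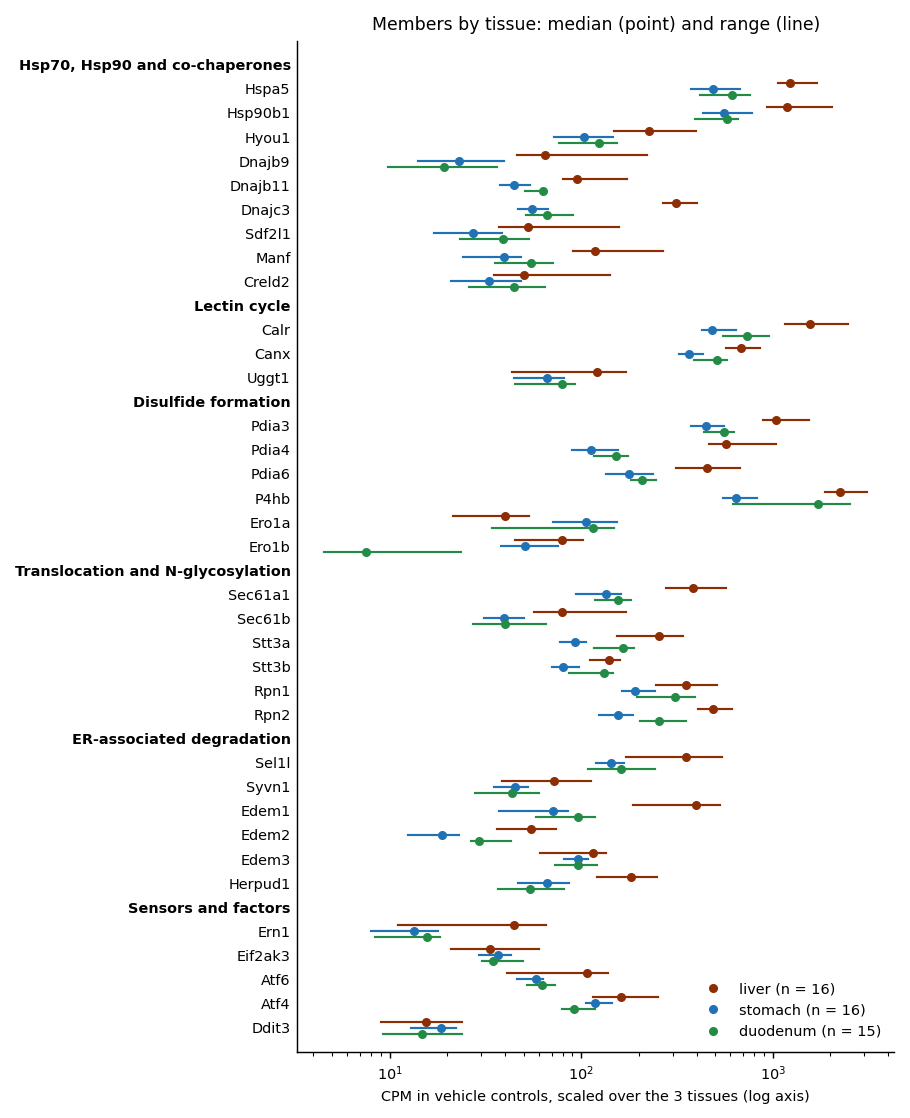
Levels of the 35 members in vehicle controls (CPM scaled over the 3 tissues, log axis), grouped by role; points are medians and lines run from the lowest to the highest library. Liver lies to the right for nearly every gene, Ero1a is lowest in liver, and Ero1b is lowest in duodenum.

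In liver against stomach 32 members were called higher and 1 lower, where 38.1% of the 16033 genes tested were called higher and 42.6% lower. The median log2 ratio was 1.23 over the members and -0.065 over all genes. Against duodenum 30 members were higher and 1 lower in liver, where 35.9% of all genes were higher and 44.2% lower, with a median log2 ratio of 0.945 over the members and -0.136 over all genes.

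Among the co-chaperones of BiP, Dnajc3 (p58IPK, a J-domain protein that also restrains PERK) had a median of 313 CPM in liver (268 to 402), 55.7 CPM in stomach (46.6 to 67.3) and 66.5 CPM in duodenum (51.5 to 90.7). Every liver control was above every gut control. Its log2 ratio was 2.52 ± 0.073 (SE) against stomach (edgeR adjusted p = 8.33e-33) and 2.27 ± 0.074 against duodenum (edgeR adjusted p = 1.22e-30). Hspa5 itself, the main ER Hsp70, stood at 1233 CPM in liver (1069 to 1701), 485 in stomach (376 to 674) and 613 in duodenum (420 to 760). On the common scale its liver libraries were again separate from both gut tissues, with log2 ratios of 1.35 ± 0.091 and 1.09 ± 0.092. Scaled within each tissue instead, Hspa5 ran from 666 to 1062 CPM in liver controls and from 560.9 to 1019 CPM in duodenum controls. On that scale the 2 tissues overlapped.

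Edem1, a lectin that delivers misfolded glycoproteins to degradation, had medians of 399 CPM in liver (187 to 533), 71.6 in stomach (37.1 to 85.3) and 96.4 in duodenum (57.8 to 118). Its log2 ratio of 2.56 ± 0.12 against stomach was the largest among the members in that contrast. Pdia4, a disulfide isomerase, had a log2 ratio of 2.42 ± 0.083 in the same contrast, with 573 CPM in liver (463 to 1039), 113 in stomach (89.2 to 155) and 152 in duodenum (117 to 176). Herpud1, a membrane protein of the degradation complex, had a log2 ratio of 1.68 ± 0.11 against duodenum and 1.49 ± 0.11 against stomach. Dnajb9 (ERdj4, which turns BiP onto IRE1) ran from 46.5 to 221 CPM in liver and from 9.83 to 36.4 CPM in duodenum, with a log2 ratio of 1.93 ± 0.21.

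The oxidases that pass oxidizing equivalents to the disulfide isomerases ran in opposite directions. Ero1a, the hypoxia-responsive oxidase, had a median of 40 CPM in liver (21.4 to 53.7) against 106 in stomach (71.2 to 155) and 116 in duodenum (34.3 to 149). It was the only member called lower in liver, with log2 ratios of -1.45 ± 0.16 and -1.37 ± 0.16 (edgeR adjusted p = 1.24e-11 and 8.03e-11). Ero1b, the oxidase known for its expression in pancreas and stomach, had 79.4 CPM in liver (44.97 to 102), 51.0 in stomach (38.0 to 75.5) and 7.49 in duodenum (4.55 to 23.6). All liver and stomach controls were above all duodenum controls, and the log2 ratio to duodenum was 3.22 ± 0.15 for liver and 2.68 ± 0.15 for stomach.

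Between the gut tissues 3 members were called higher in stomach (Ero1b, Atf4 and Ddit3) and 20 lower. Of all genes 37.2% were called higher and 37.2% lower. P4hb, the classical disulfide isomerase and a subunit of prolyl 4-hydroxylase, differed most among the lower, with 645 CPM in stomach (552 to 825) and 1730 in duodenum (617 to 2525). Its log2 ratio was -1.47 ± 0.12 (edgeR adjusted p = 5.42e-15), although the lowest duodenum library lay in the stomach range. All 4 oligosaccharyltransferase genes were lower in stomach, the catalytic subunits Stt3a by -0.80 ± 0.083 and Stt3b by -0.68 ± 0.066 and the ribophorins Rpn2 by -0.75 ± 0.068 and Rpn1 by -0.66 ± 0.083. All 10 other genes of N-glycan addition and trimming that were tested were lower as well. Edem2, which starts the mannose trimming of misfolded glycoproteins, had a log2 ratio of -0.74 ± 0.081.

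The transcription factors stood out less. Atf4 was higher in stomach than in duodenum by 0.32 ± 0.093 (118 against 91.2 CPM) and higher in liver than in both, at 162 CPM. Ddit3, the proapoptotic factor CHOP, had medians of 15.4 CPM in liver, 18.5 in stomach and 14.7 in duodenum, and its ranges overlapped in all pairs. The stomach exceeded the duodenum by 0.27 ± 0.12 for Ddit3 (edgeR adjusted p = 0.0378), a call that was lost without the filter on low counts (adjusted p = 0.0572) and in a fit of those tissues alone (adjusted p = 0.0526). Eif2ak3 was not called in any pair of tissues. Xbp1, the target of IRE1 splicing, had 212 CPM in liver, 206 in stomach and 151 in duodenum. Ern2, the mucosal IRE1 homologue, had 0 CPM in all liver controls, 20.1 CPM in stomach (9.24 to 28.6) and 8.08 CPM in duodenum (3.67 to 14.6).

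The comparisons with vehicle ask which of these transcripts differed after microplastics. At 5 mg/kg no member passed edgeR's test in any tissue, over both sexes or within a sex, and neither did any other gene. Unadjusted p-values under 0.05 were reached over both sexes by 0 members in liver, 6 in stomach and 10 in duodenum, and by 272, 909 and 2132 of all genes. The difference of the 50 mg/kg effect between the sexes was also called for no gene in any tissue (unadjusted p under 0.05 for 307, 1187 and 302 genes). The contrasts at 5 and 50 mg/kg share their vehicle controls. The smallest p-values at 5 mg/kg over both sexes belonged in stomach to Uggt1 (log2 ratio -0.23 ± 0.073), Hyou1 (-0.22) and Hsp90b1 (-0.17), and in duodenum to the disulfide isomerases Pdia6 (0.19 ± 0.058), Pdia3 (0.19 ± 0.066) and Pdia4 (0.16 ± 0.064), with adjusted p-values of 0.206 or more. Between 50 and 5 mg/kg no member was called in any tissue, and in stomach 0.707% of all genes were (0.614% higher and 0.0925% lower at 50 mg/kg). Levels from here on are CPM scaled within a tissue.

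**Figure D2:**
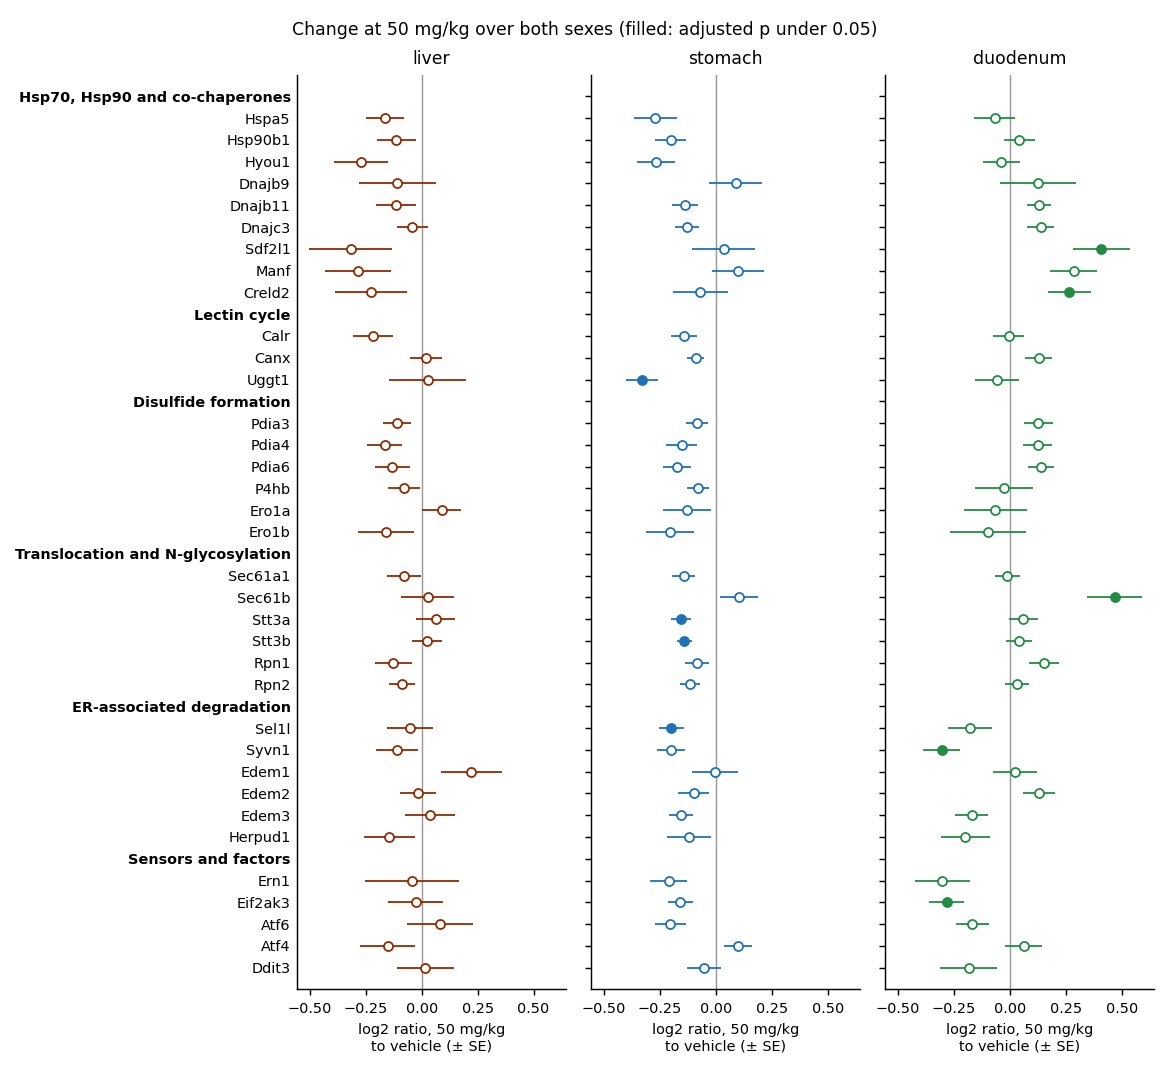
Log2 ratio of 50 mg/kg to vehicle over both sexes, with its SE, for each member in each tissue; filled points passed edgeR's adjusted p threshold of 0.05. Filled points are Uggt1, Stt3a, Stt3b and Sel1l below 0 in stomach, and Sec61b, Sdf2l1 and Creld2 above 0 with Syvn1 and Eif2ak3 below 0 in duodenum.

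In stomach, 4 members fell at 50 mg/kg and none rose, where 4.49% of the 15140 genes tested were called (1.84% fell and 2.65% rose). The median log2 ratio was -0.136 over the 35 members and -0.0058 over all genes, 30 of the 35 ratios were below 0, and 20 members had an unadjusted p under 0.05 (3610 of all genes). The 4 that fell were Uggt1, the folding sensor that puts a glucose back on unfinished glycoproteins, the oligosaccharyltransferase subunits Stt3a and Stt3b, and Sel1l, the adaptor of the degradation ligase Hrd1.

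Uggt1 had 58.9 to 103 CPM in the 16 vehicle libraries (median 83.5), 49.0 to 85.7 at 5 mg/kg (median 70.0) and 34.1 to 81.6 at 50 mg/kg (median 65.5). All 16 high-dose libraries were below the vehicle median and 3 were below every vehicle library. The log2 ratio was -0.33 ± 0.072 (edgeR adjusted p = 0.0216). At 5 mg/kg it was -0.23 ± 0.073 (edgeR adjusted p = 0.584).

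Stt3b, which glycosylates sites that the channel-bound complex has skipped, had 89.0 to 123 CPM in vehicle libraries (median 102), 89.7 to 105 at 5 mg/kg (median 96.7) and 74.7 to 99.2 at 50 mg/kg (median 91.8). All 16 high-dose libraries were below the vehicle median, and the log2 ratio was -0.14 ± 0.035 (edgeR adjusted p = 0.0229). Stt3a, the catalytic subunit of the channel-bound complex, had 102 to 134 CPM in vehicle libraries (median 118), 98.1 to 140 at 5 mg/kg (median 111) and 91.0 to 119 at 50 mg/kg (median 107). All but 1 of the high-dose libraries were below the vehicle median, with a log2 ratio of -0.16 ± 0.043 (edgeR adjusted p = 0.0321).

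Sel1l had 158 to 210 CPM in vehicle libraries (median 180), 134 to 193 at 5 mg/kg (median 170) and 108 to 201 at 50 mg/kg (median 157). Of the high-dose libraries 14 were below the vehicle median and 8 below every vehicle library. Its log2 ratio was -0.20 ± 0.056 (edgeR adjusted p = 0.035). Syvn1, which encodes Hrd1 itself, had the same log2 ratio of -0.20 ± 0.064 and missed the threshold (edgeR adjusted p = 0.0566).

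Hspa5 did not pass in stomach: 488 to 855 CPM in vehicle libraries (median 617), 448 to 791 at 5 mg/kg (median 525) and 381 to 838 at 50 mg/kg (median 519), with a log2 ratio of -0.27 ± 0.095 (edgeR adjusted p = 0.0799). Hyou1, the Hsp110 exchange factor of BiP, had -0.27 ± 0.086 (edgeR adjusted p = 0.0567). The stress-induced genes gave -0.12 ± 0.099 for Herpud1, 0.10 ± 0.063 for Atf4 and -0.05 ± 0.076 for Ddit3, with adjusted p-values of 0.34 or more. Xbp1 had -0.15 ± 0.063 (edgeR adjusted p = 0.145) and Ern2 -0.27 ± 0.10 (edgeR adjusted p = 0.0939). The members summed to 5888 to 8186 CPM in vehicle libraries (median 6729), 5566 to 7797 at 5 mg/kg (median 6083) and 5476 to 6691 at 50 mg/kg (median 6069).

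Among 96 other pathway genes tested in stomach, 1 rose and 3 fell, a share near the 4.49% of all genes called. Ganab, the glucosidase that trims the sugars Uggt1 adds back, fell by 0.18 ± 0.042 on the log2 scale (edgeR adjusted p = 0.0216). Ssr1, part of the translocon-associated complex, had -0.16 ± 0.048 and Eif2ak1, a kinase of the integrated stress response that lies outside the ER, -0.13 ± 0.039. Fkbp7, an ER prolyl isomerase, rose by 0.37 ± 0.10 (edgeR adjusted p = 0.0312).

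In males alone 4 members fell at 50 mg/kg in stomach, where 7.06% of all genes were called (2.11% fell and 4.95% rose). Uggt1 had -0.38 ± 0.10, Sel1l -0.28 ± 0.079, Stt3a -0.19 ± 0.060 and Ern1 -0.38 ± 0.12, with edgeR adjusted p-values from 0.0238 to 0.0432. Ern1, the IRE1 kinase and endonuclease, had 14.5 to 22.7 CPM in the 8 male vehicle libraries (median 17.5) and 5.62 to 20.3 in the 8 male high-dose libraries (median 13.8), and 5 of those were below every vehicle library. In females no gene was called (880 had an unadjusted p under 0.05), and the same genes had -0.29 ± 0.10, -0.12 ± 0.079, -0.12 ± 0.060 and -0.04 ± 0.12. The difference between the sexes was 0.33 ± 0.16 for Ern1 (edgeR adjusted p = 0.637) and did not pass for any of them.

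The stomach counts rested on single libraries and on the model. Over both sexes the 4 calls became 0 without male high-dose replicate 4, 1 without female control replicate 6 and 13 without female control replicate 2. Of all genes 4, 131 and 1465 were called in those fits, against 680 in the main fit. The 4 became 2 without male control replicates 2 or 4, male high-dose replicates 2 or 3 or female high-dose replicates 2, 3 or 7. There 155 to 358 of all genes were called. The 4 calls in males became 0 without male control replicate 4 or male high-dose replicates 2, 3 or 4, with 275 to 357 of all genes called. They became 2 without male control replicates 2, 3 or 5 or male high-dose replicate 6, with 508 to 1053 of all genes called. The main fit called 1069 genes in males. No member was called within batch 1 or batch 2 alone, where Uggt1 kept log2 ratios of -0.33 and -0.36.

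The share of counts from 167 ribosomal protein genes moved with dose in the same libraries. It was 2.20 to 6.03% in stomach vehicle libraries (median 2.65%), 2.39 to 5.98% at 5 mg/kg (median 2.78%) and 2.63 to 7.35% at 50 mg/kg (median 3.82%), and in males the mean was 2.71 ± 0.504% (SD, n = 8) with vehicle and 5.04 ± 1.95% (SD, n = 8) at 50 mg/kg. With the log2 of this share in the model, no member was called in stomach and Uggt1 had -0.13 (adjusted p = 0.483), Sel1l -0.07 and Stt3a -0.06, while Stt3b kept -0.13 (adjusted p = 0.353). Only 3 genes in all were then called. Parietal cell markers summed to a median of 8526 CPM with vehicle and 7154 CPM at 50 mg/kg (2 of 6 fell), chief cell markers to 97710 and 82850 CPM (0 of 5 called) and macrophage markers to 182 and 223 CPM (1 of 5 rose). The part of these cell types in the result was not tested.

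In duodenum, 3 members rose and 2 fell at 50 mg/kg, 14.3% of the 35, where 16.3% of all 15189 genes tested were called (8.76% higher, 7.58% lower). The members' share was thus near that of all genes. The median log2 ratio was 0.031 over the members and -0.021 over all genes. Those that rose were Sec61b, the beta subunit of the translocation channel, and the secreted or luminal stress genes Sdf2l1 and Creld2, while those that fell were Syvn1 and the sensor Eif2ak3.

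**Figure D3:**
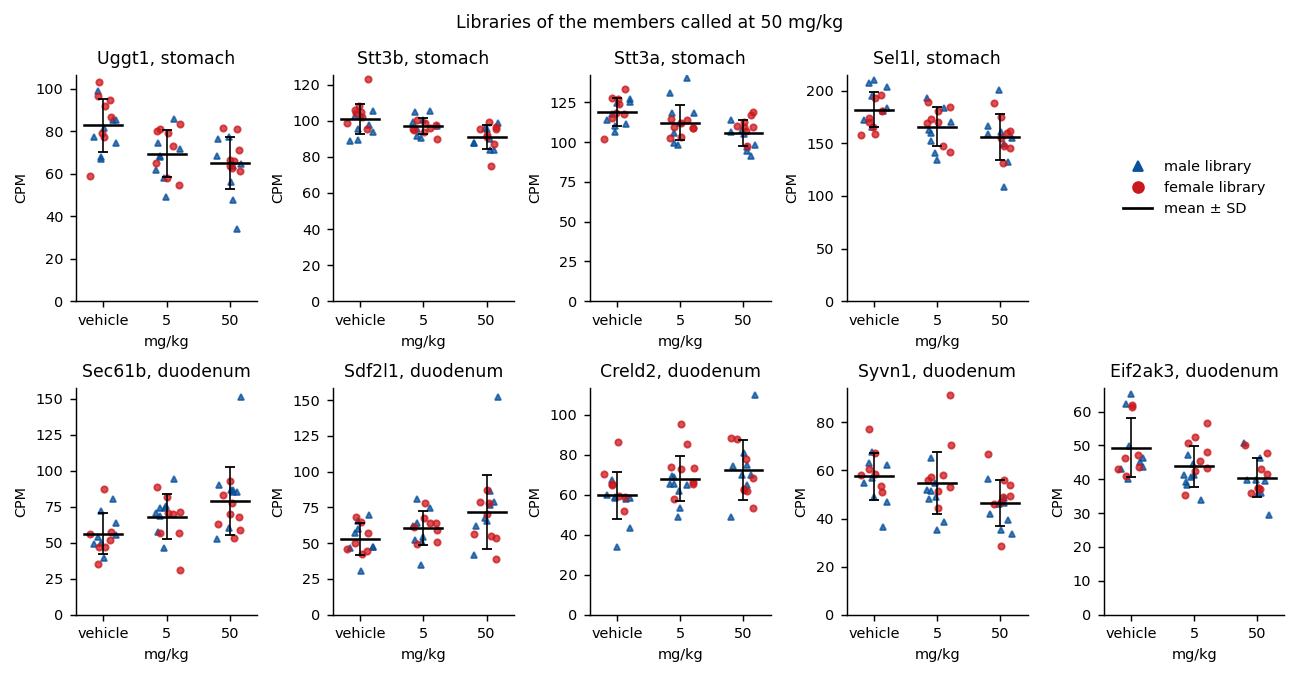
CPM of each library (scaled within a tissue) for the 4 members called in stomach and the 5 called in duodenum at 50 mg/kg, by dose; triangles are male and circles female libraries, and bars give the mean ± SD. All groups overlap, and male high-dose replicate 5 stands at 152 CPM for both Sec61b and Sdf2l1 in duodenum.

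Sec61b had 35.1 to 87.4 CPM in the 15 vehicle libraries (median 54.1), 30.7 to 93.9 at 5 mg/kg (median 70.5) and 52.6 to 152 at 50 mg/kg (median 80.3). Of the 16 high-dose libraries 14 were above the vehicle median and 3 above every vehicle library. The log2 ratio was 0.47 ± 0.12 (edgeR adjusted p = 0.0132). Sdf2l1, a partner of the co-chaperone Dnajb11 that keeps BiP's clients soluble, had 30.6 to 69.6 CPM with vehicle (median 50.4), 34.9 to 80.7 at 5 mg/kg (median 61.4) and 38.7 to 153 at 50 mg/kg (median 69.0). Again 14 of 16 were above the vehicle median, with 8 above every vehicle library and a log2 ratio of 0.41 ± 0.13 (edgeR adjusted p = 0.0256).

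Creld2, a stress-induced disulfide isomerase-like protein, had 34.0 to 86.2 CPM with vehicle (median 59.0), 48.9 to 95.2 at 5 mg/kg (median 65.9) and 48.7 to 110 at 50 mg/kg (median 69.9). Its log2 ratio of 0.27 ± 0.095 was close to the threshold (edgeR adjusted p = 0.0472), and the call was lost in 23 of the 47 fits that left out 1 library. Manf, which stabilizes complexes of BiP with its clients, had 0.28 ± 0.11 and did not pass (edgeR adjusted p = 0.0559).

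Syvn1 had 36.3 to 77.3 CPM with vehicle (median 58.1), 35.3 to 91.3 at 5 mg/kg (median 52.4) and 28.4 to 66.8 at 50 mg/kg (median 46.7). All but 1 of the high-dose libraries were below the vehicle median, with a log2 ratio of -0.31 ± 0.084 (edgeR adjusted p = 0.0158). Eif2ak3, the PERK kinase, had 39.98 to 65.2 CPM with vehicle (median 46.1), 34.0 to 56.5 at 5 mg/kg (median 42.8) and 29.5 to 50.8 at 50 mg/kg (median 39.6). Below every vehicle library were 10 of the 16, and the log2 ratio was -0.28 ± 0.078 (edgeR adjusted p = 0.0158). Both kept their calls in all 47 fits that left out 1 library.

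Hspa5 in duodenum had 561 to 1019 CPM with vehicle (median 789), 602 to 1059 at 5 mg/kg (median 821) and 528 to 1082 at 50 mg/kg (median 739), a log2 ratio of -0.07 ± 0.091 (edgeR adjusted p = 0.646). Herpud1 had -0.20 ± 0.11, Ddit3 -0.19 ± 0.13 and Atf4 0.06 ± 0.084, none of which passed. Xbp1 had 0.03 ± 0.061 (edgeR adjusted p = 0.8) and Ern2 -0.33 ± 0.16 (edgeR adjusted p = 0.141). Within males or females no gene was called at 50 mg/kg (3650 and 2048 genes had an unadjusted p under 0.05). In males DESeq2 called 4 members, and its calls among all genes are not given here.

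Other pathway genes in duodenum were called 24 times out of 95, with 17 that rose and 7 that fell, where 8.76% of all genes rose and 7.58% fell. In the list of translocation and signal peptide cleavage 10 of 15 rose and none fell, with a median log2 ratio of 0.344 against -0.021 over all genes. It included the signal peptidase genes Spcs2 (0.36 ± 0.090) and Sec11a (0.40 ± 0.11). Named after their values were seen are Spcs3 (0.44 ± 0.12), of the same enzyme, and Sec61g (0.46 ± 0.13), the gamma subunit of the channel that Sec61b serves. Among 14 tested targets of PERK and ATF4, 1 rose and 4 fell, among them, also chosen after their values were seen, the cystine transporter gene Slc7a11 (-0.83 ± 0.27) and Atf3 (-0.90 ± 0.30), a stress-induced transcription factor. Eif2s1, the translation factor that PERK phosphorylates, rose by 0.45 ± 0.11 (edgeR adjusted p = 0.0104). Ostc, an oligosaccharyltransferase subunit, rose by 0.60 ± 0.15, and Txndc12, an ER thioredoxin, by 0.37 ± 0.096.

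The ribosomal protein share of counts also moved with dose in duodenum, with medians of 3.68% with vehicle (2.66 to 5.12%), 4.31% at 5 mg/kg (2.69 to 6.06%) and 5.62% at 50 mg/kg (2.93 to 9.61%). With this share in the model no gene was called in duodenum. Sec61b then had 0.06, Syvn1 -0.11, Eif2ak3 -0.04 and Creld2 0.09, and Sdf2l1 turned to -0.04. Male high-dose replicate 5, the library with the highest share (9.61%), also had the highest Sec61b, Sdf2l1 and Creld2 and the lowest Uggt1 (55.8 CPM). Without it 3 members were called, without female control replicate 1 also 3, without female high-dose replicate 3 there were 8 and without male high-dose replicate 6 there were 12. Of all genes 1334, 1146, 3066 and 3700 were called in those fits, against 2481 in the main fit.

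Within batch 1 no gene was called in duodenum, and Sec61b had 0.20 and Syvn1 -0.09. Batch 2 alone gave 4 member calls, and its calls among all genes are not given here. Pancreatic acinar markers had medians of 624 CPM with vehicle and 407 CPM at 50 mg/kg (0 of 13 called), and with their sum as a covariate all 5 members kept their calls. Plasma cell markers summed to a median of 754 CPM with vehicle and 944 CPM at 50 mg/kg (1 of 6 rose), and macrophage markers to 1013 and 1392 CPM (1 of 5 rose). Enterocyte markers summed to between 1731 and 17910 CPM with vehicle and to between 1026 and 7873 CPM at 50 mg/kg. The part of enterocytes, plasma cells and macrophages was not tested.

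In liver no gene was called at either dose, over both sexes or within a sex. At 50 mg/kg over both sexes 446 of 13130 genes had an unadjusted p under 0.05, and 3 members did. These were Calr (calreticulin, -0.22 ± 0.089), Hyou1 (-0.27 ± 0.12) and Pdia4 (-0.17 ± 0.077), all with an edgeR adjusted p of 1. Hspa5 had 666 to 1062 CPM with vehicle (median 763), 571 to 984 at 5 mg/kg (median 730) and 510 to 915 at 50 mg/kg (median 659), a log2 ratio of -0.17 ± 0.085. Herpud1 had -0.15 ± 0.11, Atf4 -0.15 ± 0.12 and Ddit3 0.02 ± 0.13. Ddit3 ran from 5.65 to 14.7 CPM with vehicle and from 7.19 to 15.95 CPM at 50 mg/kg, so the ranges overlapped almost wholly.

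The liver member with the smallest p at 5 mg/kg was Dnajb9 in males, with 29.0 to 142 CPM in vehicle libraries (median 42.2) and 16.1 to 51.0 CPM at 5 mg/kg (median 25.9). Its log2 ratio of -0.88 ± 0.24 did not pass (edgeR adjusted p = 0.0922). DESeq2 called 2 members in that contrast, and its calls among all genes are not given here. With male high-dose replicate 6, a library outside the contrast, left out, edgeR called 2 members and 773 of all genes. In females at 5 mg/kg Dnajb9 had 0.24 ± 0.23. At 50 mg/kg in males it had -0.14 ± 0.23.

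Female and male vehicle controls differed in liver for 5 of the 35 members, 14.3%, where 22.8% of all genes were called (10.5% higher in females, 12.3% lower). The members' share was no higher than that of all genes. Pancreatic acinar markers summed to 38.61 to 392.2 CPM in female and to 0.11 to 1.52 CPM in male liver controls. No liver fit held them as a covariate, and their part was not tested. Sel1l had the smallest p, with 225 to 350 CPM in the 8 female libraries (median 252) and 108 to 211 CPM in the 8 male libraries (median 167), so the sexes did not overlap. Its log2 ratio was 0.63 ± 0.14 (edgeR adjusted p = 0.00096).

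Eif2ak3 was also higher in females, at 16.6 to 39.0 CPM (median 23.3) against 13.5 to 22.5 in males (median 15.9), with a log2 ratio of 0.57 ± 0.17 (edgeR adjusted p = 0.0141). Pdia4 was at 323 to 649 CPM in females (median 415) and 288 to 399 in males (median 328), a log2 ratio of 0.36 ± 0.11 (edgeR adjusted p = 0.0122). For both genes the ranges overlapped, and 5 and 6 of the 8 female libraries were above every male library.

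Pdia6, another disulfide isomerase, was lower in females, with 187 to 420 CPM (median 222) against 274 to 343 (median 312), and 7 of 8 female libraries were below every male library. Its log2 ratio was -0.35 ± 0.11 (edgeR adjusted p = 0.0167). Sec61b had -0.43 ± 0.16 (edgeR adjusted p = 0.0497), and that call was lost in 31 of the 46 fits that left out 1 library. The 2 isomerases therefore differed by sex in opposite directions in the same libraries.

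Xbp1 was lower in female livers by -0.56 ± 0.17 (edgeR adjusted p = 0.0141), and Creb3l1, a membrane-bound relative of ATF6, was higher by 1.42 ± 0.22 (edgeR adjusted p = 4.02e-06). Of 92 other pathway genes tested there, 6 were higher and 11 lower in females, where 10.5% of all genes were higher and 12.3% lower. Txndc11 (0.78 ± 0.10) and Txndc5 (0.60 ± 0.12), thioredoxin-domain proteins of the ER, and Creb3l2 (1.01 ± 0.21) were among the higher. Within batch 1 no member was called and within batch 2 there was 1, and calls among all genes in these fits are not given here. Without female control replicate 7 there were 3, with 2340 of all genes called against 2995 in the main fit. In stomach and duodenum no member differed between the sexes among controls, where 0.172% and 0.079% of all genes did (unadjusted p under 0.05 for 4 and 1 members and for 1106 and 805 genes).

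Beyond dose and sex, libraries of one group differed among themselves, and several members did so together. After group and batch means were removed from log2 CPM, each gene of a tissue was correlated with Hspa5 across its libraries (46, 48 or 47), with 1e+05 permutations within batch and adjustment over all genes of the tissue. Of the 34 other members 7 passed in liver, 13 in stomach and 12 in duodenum, all with a positive r. Among all genes 0.145%, 0.41% and 2.67% passed with a positive r. The median r was 0.428, 0.405 and 0.367 over the members and -0.001, -0.014 and -0.016 over all genes.

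**Figure D4:**
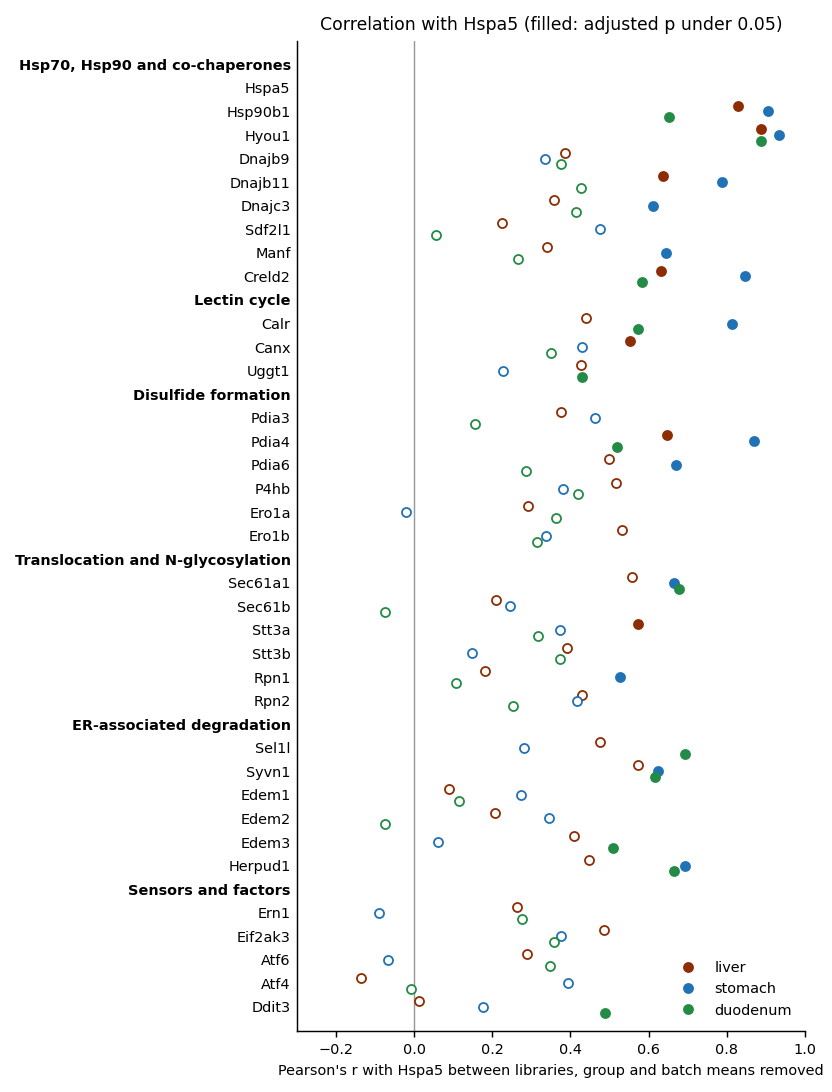
Pearson's r of each member with Hspa5 between libraries of a tissue, group and batch means removed; filled points passed a permutation p adjusted over all genes of the tissue. Hyou1 lies farthest right in each tissue, while Atf4, Sec61b and Edem1 are near 0 in at least 1 tissue.

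Hyou1 gave the highest r of the members in all 3 tissues, 0.887 in liver (rho 0.898), 0.934 in stomach (rho 0.889) and 0.887 in duodenum (rho 0.858). Each had a permutation p of 1e-05, the smallest these permutations can give, and adjusted values of 0.0146, 0.00445 and 0.00633. Without the pair of libraries farthest from the median of Hspa5 its r was 0.864, 0.923 and 0.866. Hsp90b1, the ER Hsp90, had 0.830, 0.906 and 0.653 (rho 0.854, 0.925 and 0.622). Hyou1, Hsp90b1, Pdia4 and Creld2 were the 4 members that passed in every tissue.

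Other members moved with Hspa5 in some tissues. Dnajb11 (ERdj3, a BiP co-chaperone) had r of 0.637 in liver and 0.787 in stomach and did not pass in duodenum (r = 0.427, permutation p = 0.00486, adjusted p = 0.08). Calr and Herpud1 passed in stomach (0.813 and 0.692) and duodenum (0.574 and 0.666). Sel1l (0.693) and Edem3 (0.508) passed in duodenum, and Manf (0.645) and Pdia6 (0.669) in stomach. Whether r differed between tissues was not tested.

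PERK itself (Eif2ak3) did not pass with Hspa5 in any tissue, with r of 0.486, 0.376 and 0.357 (rho 0.41, 0.351 and 0.333, adjusted permutation p = 0.118, 0.366 and 0.137). Atf4, which PERK favours, had r of -0.137 in liver (permutation p = 0.391), 0.394 in stomach (adjusted p = 0.305) and -0.008 in duodenum (permutation p = 0.956). Ddit3 had 0.012 in liver and 0.175 in stomach and passed in duodenum at 0.488 (rho 0.48, permutation p = 0.00086, adjusted p = 0.0363). Sec61b had 0.209, 0.244 and -0.074.

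Of the 6 members other than Hspa5 whose promoter held the full ER stress element, 3 passed in liver, 4 in stomach and 3 in duodenum, with median r of 0.542, 0.712 and 0.493. Of the 21 members with a matched promoter and no full element, 4, 6 and 8 passed, with median r of 0.428, 0.376 and 0.377. Hyou1 itself has no match to the full element at the spacing searched. Its printed stretch holds CGTGG and CCAAT at a shorter spacing, which was not searched. Without the pair of libraries farthest from the median of Hspa5, 2 members passed in liver, 11 in stomach and 8 in duodenum, and r kept its sign for all that had passed. Without batch 3 there were 3, 12 and 15. Female control replicate 4 in liver had the highest Hspa5 (1062 CPM) and Creld2 (88.2 CPM) of all liver libraries, and its members summed to 12140 CPM.

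A second pattern ran along the ribosomal protein share, a relation examined after the data were seen. With the same method 21 of 35 members in liver (60.0%), 13 in stomach (37.1%) and 17 in duodenum (48.6%) correlated with that share, where 61.1%, 30.9% and 46.0% of all genes did, so the members were not set apart from other genes here. Of the members 10, 5 and 9 passed with a positive r and 11, 8 and 8 with a negative r, and all genes also split both ways (positive in 27.6%, 16.5% and 23.9%, negative in 33.5%, 14.4% and 22.1%). Sec61b, Sdf2l1 and Manf were positive in all 3 tissues, and Uggt1, Edem3, Sel1l, Atf6, Ern1 and Eif2ak3 were negative in all 3.

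**Figure D5:**
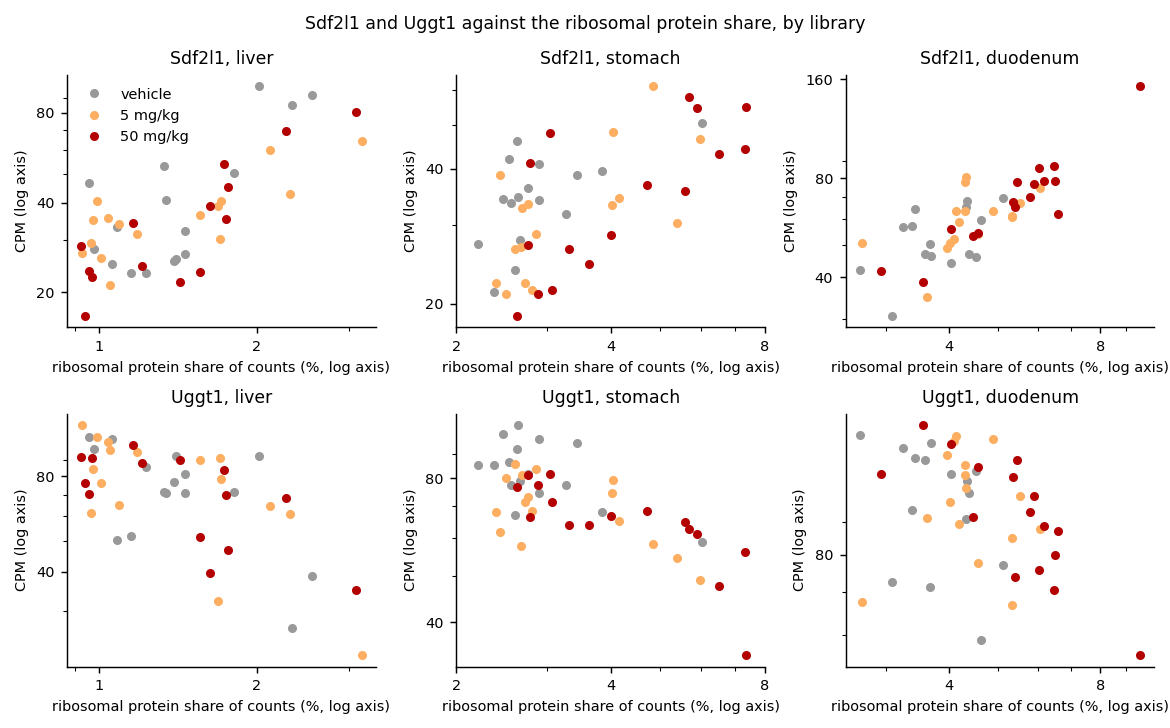
CPM of Sdf2l1 (top) and Uggt1 (bottom) in each library against the share of its counts from 167 ribosomal protein genes, by tissue and dose (both axes log). Sdf2l1 is higher and Uggt1 lower where the share is higher, among vehicle libraries (grey) as well as treated ones.

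Sdf2l1 had r of 0.741 in liver, 0.623 in stomach and 0.743 in duodenum (rho 0.727, 0.615 and 0.62), and Sec61b 0.773, 0.502 and 0.721. Permutation p-values for these were 0.0007 or lower. Uggt1 had -0.653, -0.645 and -0.437, Sel1l -0.761, -0.566 and -0.751, and Eif2ak3 -0.510, -0.465 and -0.740. All relations that passed kept their sign within batch 1, within batch 2 and without the pair of libraries farthest from the median share. Of the 9 members called at 50 mg/kg over both sexes, Sec61b and Sdf2l1 rose and were positive with this share in every tissue. Uggt1, Sel1l and Eif2ak3 fell and were negative in every tissue. Ern1, called in stomach males alone, also fell and was negative in every tissue. Creld2 (0.419) and Syvn1 (-0.566) in duodenum and Stt3a (-0.554) in stomach passed with the sign of their dose change there. Stt3b in stomach did not pass (-0.109). The same comparison was not made for all genes called, and the cause was not tested.

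Between liver libraries of one group and batch the most variable members were Ern1 (residual SD of 0.663 on the log2 scale), Uggt1 (0.517) and Sdf2l1 (0.511), against a median of 0.262 over the members and 0.334 over all genes. The steadiest members were Rpn2 in liver (0.142), Stt3b in stomach (0.087) and Rpn2 in duodenum (0.121).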

How the data were processed

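The authors deposited estimated counts per gene, which need not be whole (fractional values made up 9.47% in liver, 11.3% in stomach, 11.9% in duodenum). The submitters' processing notes name STAR 2.7.11b, Salmon 1.10.3, UMI-tools 1.1.5, Trim Galore 0.6.10 and the build mRatBN7.2. What each did, the annotation and whether strand was used are not given here, so overlapping or antisense genes may share reads.

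The expected counts were rounded. The filter was filterByExpr in edgeR 4.0.16 (minimum count 10, total 15), leaving 13130, 15140 and 15189 genes, and libraries were scaled by TMM. The quasi-likelihood model held each combination of sex and dose plus batch, over all libraries of a tissue. Benjamini-Hochberg adjustment ran over all genes, with 0.05 as the threshold. SEs come from the fit. Tissues were compared in 1 fit of the 47 controls without a batch term. Correlations used log2 CPM (prior count 2) and were adjusted over all genes of a tissue, not over the member pairs alone as first planned. No 2 libraries held equal values (highest correlation 0.9841). On simulated data with 200 changed genes the fit recovered 62, 83 and 71 of 100 genes changed 1.5-fold in liver, stomach and duodenum, and 93, 94 and 87 of 100 changed 2-fold. The simulated counts varied independently between genes and held no batch effect, so these rates may not hold for the real data.

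The members and gene lists were chosen with earlier results of these data known. Members called were given in full, otherwise those with the smallest p, and always Hspa5, Ddit3, Atf4, Herpud1, Xbp1 and Ern2. Other pathway genes were the 5 called with the smallest p per contrast. Some genes that the rule names are given by counts alone. A gene value and a promoter stretch are not reported here. Alternatives were DESeq2 1.42.0, its size factors, no filter, no batch term, a replicate block, 3 surrogate variables (sva 3.50.0), ribosomal protein share or acinar markers as covariate, no batch 3, only the groups compared and leaving out each library; single batches and the correlation with ribosomal protein share were added after the data were seen.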

Additional observations from a re-analysis of the deposited data

Results flagged for a closer look

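Summed members, Hspa5 and Ddit3 were checked in 18 groups each for a library far from the others, 54 checks in all, of which chance flags about 1 in 20. In liver, female control replicate 4 had members that summed to 12140 CPM, against 9298 CPM in the next library and 7495 CPM in the lowest of the 8. Male high-dose replicate 6 in liver had 15.95 CPM of Ddit3, against 11.15 CPM in the next library and 7.606 CPM in the lowest.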

How the results depend on the processing

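Same-numbered libraries of a sex correlated from -0.513 to 0.631. Their medians per pair of groups ran from -0.281 to 0.176, and those of differently numbered libraries from -0.0985 to 0.0668. These values and the labels do not settle whether replicate numbers pair the libraries. With the replicate block the stomach calls at 50 mg/kg over both sexes rose from 4 to 8 and all other counts stayed within 1.5 times. DESeq2 gave 7 members in that contrast, 4 in duodenum males at 50 mg/kg and 2 in liver males at 5 mg/kg (0 by edgeR in both). Without a batch term stomach had 0 calls over both sexes and 0 in males, and without the filter 2 in males. With 3 surrogate variables, or with ribosomal protein share as a covariate, the calls at 50 mg/kg fell to 0 in stomach, stomach males and duodenum, and with that share Sdf2l1 in duodenum changed to -0.04; the cause was not tested. Within batch 1 there were 0 calls in stomach, stomach males, duodenum and the liver sex comparison, and within batch 2 there were 0, 0, 4 and 1; these fits hold fewer libraries. Fits of only the groups compared gave 2, 0, 3 and 2. Without batch 3 the liver sex comparison had 3 calls. In liver the members that correlated with Hspa5 fell from 7 to 2 without the pair of libraries farthest from its median and to 3 without batch 3. Leaving out each library gave 0 to 13 calls in stomach, 0 to 6 in stomach males, 3 to 12 in duodenum, 0 to 8 in duodenum males, 3 to 6 in the liver sex comparison and 0 to 2 in liver males at 5 mg/kg. Calls among all genes changed in these fits too. In duodenum males 3 fits that left out a library called members (3, 8 and 2), with 993, 2164 and 610 of all genes called. For the alternatives other than leaving out a library, calls among all genes are mostly not given here. Their member counts are therefore no result about the members alone. Of the 18 calls of a member in a dose or sex contrast, 18 stayed with DESeq2, 16 with its size factors, 16 with the block, 15 without batch 3, 13 without the filter, 8 without a batch term, 7 with only the groups compared, 5 with ribosomal protein share, 2 with 3 surrogate variables, 3 within batch 2 and 0 within batch 1. The counts for the tissue contrasts stayed within 1.5 times under every alternative run. All of those scaled the libraries by TMM or DESeq2 size factors over the tissues, so none compared levels at equal totals.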
